A study of Homo sapiens with 24 samples.

Results

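The histone genes described here were the rows whose symbol began with HIST1H to HIST4H, H2AF, H1F or H3F and that reached 10 estimated reads in at least 3 of the 24 libraries. Of 23207 genes in the files, 88 matched these symbols and 47 met the count minimum, 36 of them replication-dependent genes of the HIST clusters and 11 replacement variants. They were selected on the estimated read counts of these same libraries, whatever their group. The cells were LNCaP, an androgen-responsive human prostate cancer line, carrying lentiviral hairpins delivered at a multiplicity of infection of 10 and kept under puromycin, at 1 µg/ml for selection and 0.5 µg/ml afterwards. All lines were stable knockdown or control clones, and how many clones stand behind a line is not given in the labels. In medium with whole serum (FBS), 3 libraries of the SIRT1 knockdown named shSIRT1 were set against 3 of the non-targeted control (NTC), whose hairpin the labels also call scrambled. The SIRT1 knockdown named 10 and the NTC line were grown for 48 h in FBS medium, then for 24 h in charcoal-stripped serum, and were then given vehicle, 1 nM dihydrotestosterone (DHT), or 1 nM DHT with 10 µM of the antiandrogen enzalutamide for a further 24 h. Each of these 6 stripped-serum groups had 3 libraries. Whether the shSIRT1 and 10 names stand for the same hairpin is not given in the labels.

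Replication-dependent histone genes lie in clusters, are copied into protein in bulk when DNA is replicated, and end in a conserved stem-loop in place of a poly(A) tail; the protein SLBP binds that stem-loop and carries the message through processing and translation. Replacement variants such as H2A.Z and macroH2A are made through the cell cycle from ordinary polyadenylated messages and are placed into chromatin by dedicated chaperones. Several replication-dependent genes also yield a longer, polyadenylated message in cells that have left the cycle, HIST1H1C, HIST1H2AC, HIST1H2BD, HIST1H2BK and HIST2H2BE among them. The libraries were made by poly(A) selection, so the values below describe mainly the tailed fraction of each histone message and not its total amount. SIRT1 is an NAD-dependent deacetylase that acts on histones and on transcription factors.

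The knockdown held in both systems. Levels between libraries are given as CPM, the estimated reads of a gene scaled to the library total. SIRT1 had 8.41, 8.68 and 7.15 CPM in the shSIRT1 libraries, against 40.1, 38.0 and 36.8 CPM in NTC, a log2 fold change of -2.24 (SE 0.09, adjusted p = 8.00e-06). In stripped serum the log2 fold change of knockdown 10 over NTC was -1.55 under vehicle, -1.65 under DHT and -1.56 under DHT with enzalutamide. Library totals ran from 11.9 to 14.2 M estimated reads in FBS and from 25.2 to 35.1 M in stripped serum. The luminal prostate markers KLK3, KLK2, TMPRSS2, HOXB13, KRT8 and KRT18 were present in all 24 libraries, with KRT8 at 357 to 732 TPM, the deposited unit that is scaled by transcript length and is used here to compare genes. Of the markers of other cells, KRT5, TP63, CAV1, DCN, PTPRC and CD3E stayed at or under 0.15 TPM everywhere and COL1A2, LUM and CD14 at or under 0.6 TPM. Others were present in all 24 libraries, VIM at 7.33 to 45.5 TPM, COL1A1 at 3.59 to 8.5 TPM, CD68 at 5.04 to 7.84 TPM, COL3A1 at 1.05 to 3.86 TPM, VWF at 0.52 to 1.64 TPM and PECAM1 at 0.01 to 2.73 TPM, and KRT14 reached 1.56 TPM; their part in the results was not tested. The libraries numbered 3 stood apart in both FBS groups: between libraries 1 and 2 of a group the chi-square statistic per gene was 1.60 in shSIRT1 and 1.55 in NTC, against 8.89 to 9.39 for pairs that included library 3. Libraries 1 and 2 of each FBS group thus differed by little more than counting noise, and results from FBS are given with and without library 3 where that matters. In stripped serum the statistic ran from 3.79 to 38.6, highest for library 2 of knockdown 10 with DHT, at 38.6 against library 1 and 22.4 against library 3, and next for libraries 1 and 2 of knockdown 10 with vehicle, at 20.8. Without that DHT library the count of members called was 20 for the knockdown under DHT (22 with it), 12 for DHT over vehicle in knockdown 10 (9 with it) and 10 for enzalutamide in knockdown 10 (4 with it). The labels do not say whether the replicates of a group were separate cultures, so p-values measure the spread between these libraries, which may be technical.

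By family, the members included 11 of 17 replication-dependent H2A rows, 13 of 20 H2B, 4 of 14 H3, 6 of 15 H4 and 2 of 6 linker H1 rows, and 6 of 9 H2A, 3 of 3 H3 and 2 of 4 H1 variant rows. Of the members, 29 reached 10 reads in all 24 libraries. Just inside the count minimum lay HIST1H4K, with 10 reads in 8 libraries, and HIST2H2AC, with 10 reads in 12. Just outside it lay HIST1H3A, HIST1H3J and HIST1H4B, each with 10 reads in 2 libraries and at most 17. Of the 41 rows that were not members, 11 had no read in any library. HIST2H2AA3 and HIST2H2AA4 had identical values in every library, as did HIST2H4A and HIST2H4B, so the 47 members are 45 distinct measurements. HIST1H4J and HIST1H4K exchanged reads from library to library and are given below as a sum. In 20 members most libraries held fractional counts, the mark of reads split among similar genes.

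Per length, H2AFZ, which encodes the replacement variant H2A.Z, was the most abundant member in stripped serum, at 907 ± 198 TPM (SD, n = 18 libraries of 6 groups). Its lowest library, at 668 TPM, lay above the highest of HIST1H2BK, at 524 TPM. HIST1H2BK (433 ± 68.3 TPM), the linker gene HIST1H1C (362 ± 107 TPM), H3F3B (361 ± 21.5 TPM), 1 of the genes for the replacement H3, and H2AFY (314 ± 21.0 TPM), which encodes a macroH2A, came next with overlapping ranges. HIST1H1E, the lowest, averaged 2.12 ± 0.722 TPM. Other replication-dependent genes filled the span between, with HIST2H2AA3 at 219 ± 26.8 TPM, HIST1H2AC at 188 ± 50.7 TPM and HIST2H2BE at 128 ± 21.7 TPM. Summed with its identical copy HIST2H2AA4, HIST2H2AA3 had group means from 364 TPM (knockdown 10 with DHT) to 495 TPM (knockdown 10 with vehicle). These lie within the range of HIST1H2BK, so the order given holds for single rows only.

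**Figure D1:**
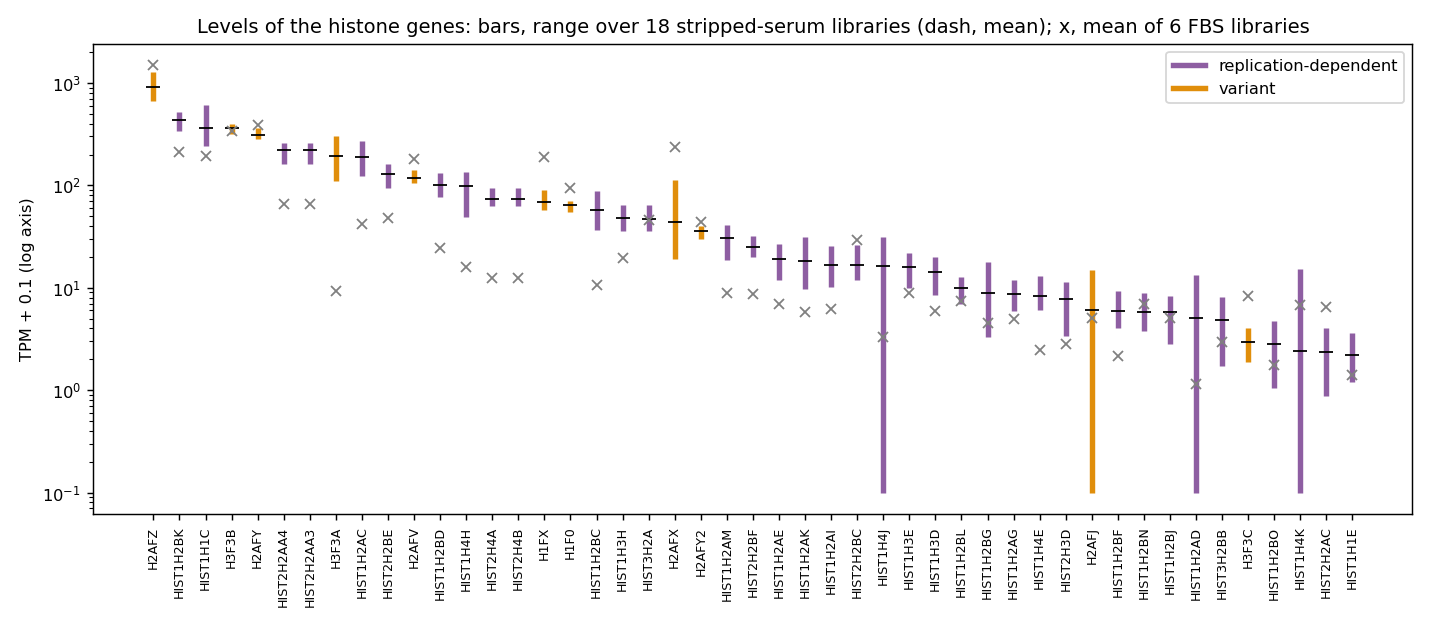
Levels of the 47 histone genes in TPM plus 0.1 on a log axis, ordered by mean level in stripped serum. Bars span the 18 stripped-serum libraries with a dash at their mean, and each cross is the mean of the 6 FBS libraries. H2AFZ leads in both media, and many replication-dependent genes have their cross below the bar.

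The stripped-serum libraries held more replication-dependent message relative to variants than the FBS libraries. Replication-dependent members took 41.6 to 58.4% of the summed TPM of all members in stripped serum, against 19.4 to 26.4% in FBS. HIST1H2AC had 188 ± 50.7 TPM in stripped serum (n = 18) and 41.5 ± 5.79 TPM in FBS (n = 6). H2AFX differed in the other direction on this scale, at 44.2 ± 28.1 TPM in stripped serum and 235 ± 42.1 TPM in FBS. H3F3A was nearly absent from the FBS files, at 9.15 ± 6.20 TPM, against 194 ± 59.6 TPM in stripped serum, while H3F3B had similar levels in stripped serum and FBS (361 ± 21.5 and 341 ± 18.1 TPM). Medium, library set and the way fragments were counted changed together: the files' effective length was the transcript length less 50 bases in FBS and less 224 to 252 bases in stripped serum. These cannot be told apart, and no test was made between the sets.

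The stem-loop that marks replication-dependent messages is a 16-base element with a 6-base stem and a 4-base loop. Searched as a stem beginning GG with a perfectly paired partner and a loop beginning TT, it was found in coding transcripts of 21 of 35 replication-dependent members, 1 of 11 variant members and 119 of 19669 genes (0.605%) of GENCODE release 29. The search misses other forms of the element and transcripts annotated to end before it. A member without a match may therefore still carry it. In 15 of the 22 members with the element at least 1 coding transcript ran on for 100 bases or more past it. The sequences below, with the loop in capitals, show the forms carried by the members the results turn on, and H2AFX, the variant that carries it.
HIST1H2AC, HIST1H2AE, HIST1H2BG and HIST2H2BE: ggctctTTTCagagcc
HIST1H2BC and HIST1H2BD: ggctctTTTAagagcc
HIST1H4H: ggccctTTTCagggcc
HIST2H4A: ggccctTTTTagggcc
H2AFX: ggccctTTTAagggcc
Values are for the GENCODE coding transcript that ran on furthest past the element, 1 of 2 for HIST1H2AC and HIST1H2BC. It continued for 1059 bases in HIST1H2BG, 1114 in HIST1H2AC and 1729 in HIST2H2BE, and for 116 in HIST1H2BC, 51 in HIST1H2AE and 1044 in H2AFX. The transcripts behind the deposited counts were shorter for HIST1H2BG (445 bases, against 1534 in GENCODE), HIST1H2AC (546 against 1654) and HIST1H2BC (438 against 571). Reads past the end of these shorter transcripts were not counted. HIST2H2BE, H2AFX and HIST1H2AE were of similar length in both, at 2223 and 2194, 1593 and 1614, and 564 and 509 bases. No count was made of which end the reads came from.

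H2AFJ, which encodes the mammalian H2A.J known to accumulate in senescent fibroblasts, was nearly lost in both knockdowns. In FBS it had 0.566, 0.161 and 0.168 CPM in shSIRT1 libraries, against 21.6, 19.5 and 9.83 CPM in NTC. In stripped serum it had 0.0911, 0.0662 and 0.431 CPM in knockdown 10 under vehicle, against 20.8, 24.1 and 30.4 CPM in NTC. Under DHT no read was assigned to it in the 3 knockdown libraries, against 23.9, 27.7 and 31.3 CPM (2505 reads in all) in NTC. Under DHT with enzalutamide it had 0.114, 0.0661 and 0.0659 CPM in knockdown 10, against 19.1, 25.9 and 23.7 CPM in NTC. The groups did not overlap in any of these comparisons. Log2 fold changes were -5.78 (SE 0.48, adjusted p = 0.000565) in FBS, -6.99 (SE 0.29, adjusted p = 1.55e-10) under vehicle and -8.07 (SE 0.34, adjusted p = 1.91e-10) under DHT with enzalutamide, by edgeR's quasi-likelihood test with Benjamini-Hochberg adjustment over all genes tested, as for every adjusted p below. Under DHT it was at least 743-fold lower in knockdown 10, counting 3 reads over the group as the floor (adjusted p = 6.38e-11). All these calls held with each library left out in turn. SE values, here and elsewhere, were worked back from the log2 fold change and the test's F statistic. They can be too small where reads are few, as with the 3, 2 and 2 knockdown reads under DHT with enzalutamide. In bulk RNA, fewer cells that express a gene and less RNA per cell cannot be told apart, here and below.

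Counts of H2AFJ were whole numbers, within 0.005, in all but 8.33% of libraries. Whole counts cannot show that reads were unshared, since HIST1H4J and HIST1H4K, which exchanged reads, had fractional counts in only 12.5% of libraries. Whether H2AFJ shared reads with other genes was not tested. WBP11, its neighbour on 1 side, which encodes a splicing protein and was looked up after the values of H2AFJ were seen, had 64.4, 62.3 and 64.6 CPM in knockdown 10 under vehicle, against 65.1, 67.0 and 69.5 CPM in NTC, with log2 fold changes of 0.10 in FBS, -0.07 under vehicle, -0.15 under DHT and -0.02 under DHT with enzalutamide (none passed; adjusted p = 0.562, 0.487, 0.107 and 0.861). The neighbour on the other side, HIST4H4, did not meet the count minimum, with at most 12 reads in a library. H2AFJ met the count minimum in 13 libraries, all of them NTC but the third vehicle library of knockdown 10, so it is a member through the group in which it is high. Its promoter, shown because no other member changed as much, is given from RefSeq (GRCh38.p14, chr12:14774155-14774404, forward strand, the 250 bases before the gene's start), with matches to CCAAT in either orientation in capitals.
H2AFJ: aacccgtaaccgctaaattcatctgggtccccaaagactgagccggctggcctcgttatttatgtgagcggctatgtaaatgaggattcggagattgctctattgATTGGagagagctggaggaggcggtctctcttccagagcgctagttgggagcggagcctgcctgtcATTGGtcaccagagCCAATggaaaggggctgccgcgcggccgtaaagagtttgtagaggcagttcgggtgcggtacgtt
The window holds 3 CCAAT matches and 16 CG dinucleotides. It holds no match to the octamer ATTTGCAT or to TATAAA. In 35114 RefSeq promoters of the same length, 32.01% held CCAAT, 1.63% ATTTGCAT and 10.72% TATAAA on either strand. Among members with a promoter, CCAAT was found in 29 of 35 replication-dependent and 6 of 9 variant genes, ATTTGCAT in 15 of 35 and 1 of 9, and TATAAA in 22 of 35 and 4 of 9.

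**Figure D2:**
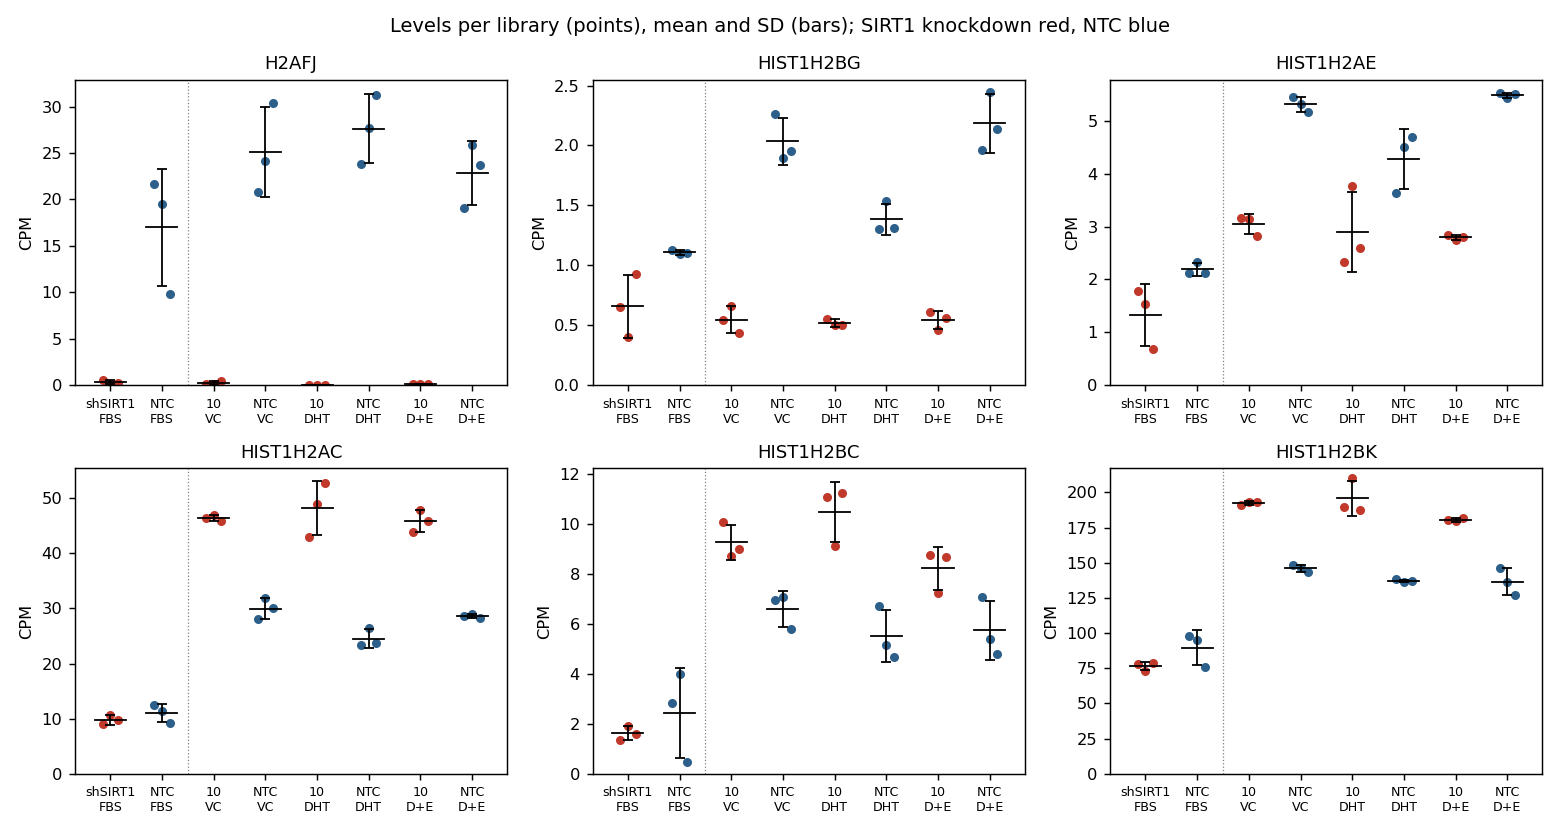
CPM of 6 histone genes in each library, with mean and SD of 3 libraries; knockdown groups stand left of their NTC group, and a dotted line separates FBS from stripped serum. H2AFJ, HIST1H2BG and HIST1H2AE lie lower in knockdown 10, and HIST1H2AC, HIST1H2BC and HIST1H2BK lie higher, in each of the 3 treatments.

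Within the HIST1 cluster a neighbouring H2A and H2B gene fell together in knockdown 10. HIST1H2BG, a replication-dependent H2B gene, had 0.547, 0.662 and 0.431 CPM in knockdown 10 under vehicle, against 2.26, 1.89 and 1.95 CPM in NTC. Under DHT it had 0.555, 0.502 and 0.498 CPM in knockdown 10, against 1.30, 1.53 and 1.31 CPM in NTC, and with enzalutamide added 0.606, 0.463 and 0.560 CPM against 1.97, 2.45 and 2.14 CPM. These knockdown values rest on few reads, 18, 20 and 13 under vehicle, 14, 14 and 14 under DHT and 16, 14 and 17 with enzalutamide. The groups did not overlap, and log2 fold changes were -1.88 (SE 0.19, adjusted p = 1.17e-06), -1.41 (SE 0.21, adjusted p = 3.03e-05) and -2.00 (SE 0.19, adjusted p = 6.44e-07) in that order. HIST1H2AE, the H2A gene transcribed away from it, had 3.16, 3.14 and 2.82 CPM in knockdown 10 under vehicle, against 5.45, 5.33 and 5.17 CPM in NTC. Under DHT it had 2.34, 3.77 and 2.60 CPM in knockdown 10, against 3.64, 4.50 and 4.69 CPM in NTC, and with enzalutamide 2.84, 2.74 and 2.80 CPM against 5.53, 5.43 and 5.50 CPM. Only under DHT did a knockdown library (the second) exceed an NTC library. Its log2 fold changes were -0.80 (SE 0.14, adjusted p = 0.000274), -0.55 (SE 0.15, adjusted p = 0.00535) and -0.97 (SE 0.14, adjusted p = 4.85e-05). No omission of a single library removed a call of either gene, but that of HIST1H2AE under DHT was lost when only the groups compared were fitted (adjusted p = 0.0693). In FBS the same direction was seen without passing the test, at -0.74 (SE 0.34, adjusted p = 0.308) for HIST1H2BG and -0.70 (SE 0.31, adjusted p = 0.296) for HIST1H2AE.

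A second divergent pair, HIST1H2AC and HIST1H2BC, rose together in knockdown 10. Only this pair and that of HIST1H2AE and HIST1H2BG were examined as pairs, and both were picked with their changes already seen. Whether other neighbouring H2A and H2B genes moved together was not tested. HIST1H2AC had 46.3, 47.0 and 45.8 CPM in knockdown 10 under vehicle, against 28.0, 31.9 and 30.0 CPM in NTC. Under DHT it had 43.0, 48.9 and 52.8 CPM in knockdown 10, against 23.3, 26.5 and 23.7 CPM in NTC, and with enzalutamide 43.8, 47.8 and 45.9 CPM against 28.7, 29.03 and 28.3 CPM. Every knockdown library lay above every NTC library, with log2 fold changes of 0.63 (SE 0.06, adjusted p = 9.25e-07), 0.98 (SE 0.06, adjusted p = 4.42e-09) and 0.68 (SE 0.06, adjusted p = 4.20e-07). HIST1H2BC had 10.1, 8.74 and 8.99 CPM in knockdown 10 under vehicle, against 6.94, 7.08 and 5.79 CPM in NTC. Under DHT it had 11.1, 9.11 and 11.2 CPM in knockdown 10, against 6.71, 5.15 and 4.69 CPM in NTC, and with enzalutamide 8.75, 7.24 and 8.69 CPM against 7.06, 5.40 and 4.79 CPM. The groups again did not overlap, with log2 fold changes of 0.50 (SE 0.16, adjusted p = 0.0217), 0.92 (SE 0.16, adjusted p = 0.000184) and 0.52 (SE 0.16, adjusted p = 0.0190). The call of HIST1H2BC under vehicle was lost without NTC library 3 (0.41) or knockdown library 1 (0.43), and that with enzalutamide without NTC library 2 or 3 or knockdown library 1 or 3 (0.39 to 0.48). In FBS neither gene of this pair passed the test, at -0.17 (SE 0.14, adjusted p = 0.592) and -0.58 (SE 0.55, adjusted p = 0.642).

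The promoters of the H2A gene of each pair are shown side by side, since the pairs share an arrangement and moved in opposite directions. Both are RefSeq windows of 250 bases before the gene's start on the forward strand of GRCh38.p14, chr6:26216671-26216920 for HIST1H2AE and chr6:26123922-26124171 for HIST1H2AC. Capitals mark matches, in either orientation, to CCAAT, to the octamer ATTTGCAT and to TATAAA.
HIST1H2AE: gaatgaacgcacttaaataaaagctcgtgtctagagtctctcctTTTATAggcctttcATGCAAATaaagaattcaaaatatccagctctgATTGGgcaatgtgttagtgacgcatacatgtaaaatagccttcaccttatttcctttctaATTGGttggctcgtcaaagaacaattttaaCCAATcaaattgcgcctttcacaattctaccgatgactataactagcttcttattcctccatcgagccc
HIST1H2AC: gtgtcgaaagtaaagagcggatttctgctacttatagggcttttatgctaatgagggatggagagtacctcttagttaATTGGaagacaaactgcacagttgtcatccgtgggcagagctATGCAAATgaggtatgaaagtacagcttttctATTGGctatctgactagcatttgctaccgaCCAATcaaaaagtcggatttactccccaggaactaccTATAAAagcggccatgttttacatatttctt
The starts of HIST1H2AE and HIST1H2BG lie 232 bases apart and those of HIST1H2AC and HIST1H2BC 245 bases apart, so each window is also nearly the whole promoter of the partner gene; its first 18 bases for HIST1H2AE and 5 for HIST1H2AC lie past the partner's start. All 4 genes held 3 CCAAT matches, 1 octamer and 1 TATAAA match in their own windows. The motifs searched therefore do not separate the pair that fell from the pair that rose. A match is a description of the letters and not a measured binding site.

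Across the members, 16 of 47 passed the test in knockdown 10 under vehicle, 10 higher and 6 lower, a share of 34.0% where 34.6% of all genes tested passed (15.5% higher and 19.1% lower). Under DHT 22 passed, 13 higher and 9 lower, a share of 46.8% where 43.0% of all genes passed (19.5% higher and 23.5% lower). With enzalutamide 21 passed, 15 higher and 6 lower, a share of 44.7% where 34.6% of all genes passed (15.4% higher and 19.2% lower). In each treatment the share of members that passed higher was above that of all genes and the share that passed lower was below it, which was not tested. By class, the 36 replication-dependent members had 9, 13 and 13 higher and 3, 2 and 3 lower, with medians of 0.27, 0.40 and 0.25 in log2 fold change, against medians within 0.01 of 0 over all genes. The 11 variants had 1, 0 and 2 higher and 3, 7 and 3 lower, with medians of 0.06, -0.25 and 0.04. The sum of HIST1H4J and HIST1H4K did not pass, at 0.65, 0.50 and 0.13 (adjusted p = 0.0886, 0.200 and 0.779).

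In all 3 treatments 9 members, 19.1% of the 47, were higher, as were 10.0% of all genes; these comparisons use different libraries but the same cell clones. They were the H2A genes HIST1H2AC, HIST1H2AI, HIST1H2AK and HIST1H2AM, the H2B genes HIST1H2BC, HIST1H2BD and HIST1H2BK, the H3 gene HIST1H3H and the H4 gene HIST1H4H. HIST1H2BK had 191, 193 and 193 CPM in knockdown 10 under vehicle, against 148, 147 and 143 CPM in NTC, and 189.9, 210.2 and 188 CPM under DHT, against 138, 136 and 137 CPM. Its log2 fold changes were 0.40 (SE 0.06, adjusted p = 3.36e-05), 0.51 (SE 0.06, adjusted p = 1.44e-06) and 0.41 (SE 0.06, adjusted p = 3.01e-05). HIST1H2AK averaged 3.14 ± 0.657 CPM in knockdown 10 under DHT and 1.40 ± 0.0985 CPM in NTC (SD, n = 3 each), and its log2 fold changes were 0.73, 1.17 and 1.04. HIST1H2BD rose by 0.27, 0.66 and 0.37, and HIST1H3H by 0.55, 0.56 and 0.39, on the log2 scale. HIST1H4H had 12.5, 12.2 and 12.6 CPM in knockdown 10 under vehicle, against 9.27, 9.43 and 9.25 CPM in NTC, with log2 fold changes of 0.42 (SE 0.15, adjusted p = 0.0380), 0.67 (SE 0.16, adjusted p = 0.00233) and 0.46 (SE 0.15, adjusted p = 0.0259). The vehicle call of HIST1H4H was lost whichever of its 6 libraries was left out (0.41 to 0.44), that of HIST1H2BD without NTC library 3 or knockdown library 2, that of HIST1H2AI without NTC library 1, and that of HIST1H2AM without NTC library 1 or 3 or knockdown library 3. The calls of HIST1H2AC, HIST1H2AK, HIST1H2BK and HIST1H3H under vehicle held through each of these omissions. With enzalutamide the calls of HIST1H2AI and HIST1H4H were lost without NTC library 2 or 3 or knockdown library 1 or 3, and that of HIST1H2AM without any NTC library or knockdown library 1 or 2. Leaving out knockdown library 1 lowered the count with enzalutamide to 13 members, 7 higher and 6 lower.

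HIST2H2BE, an H2B gene long known in its polyadenylated form, was lower in 2 of the 3 treatments. It had 162, 127 and 139.7 CPM in knockdown 10 under vehicle, against 208, 186 and 182 CPM in NTC, and 155, 119.8 and 120.1 CPM with enzalutamide, against 191, 173 and 175 CPM. Under DHT the groups overlapped, at 184, 128 and 142 CPM in knockdown 10 and 182, 156 and 145 CPM in NTC. Log2 fold changes were -0.42 (SE 0.14, adjusted p = 0.0245), -0.09 (SE 0.14, adjusted p = 0.625) and -0.44 (SE 0.14, adjusted p = 0.0188). The vehicle call was lost without NTC library 1 (-0.34), knockdown library 2 (-0.33) or knockdown library 3 (-0.39), and the enzalutamide call without NTC library 1 (-0.38), knockdown library 2 (-0.36) or knockdown library 3 (-0.37). Of the 5 genes listed above as polyadenylated, HIST1H2AC, HIST1H2BD and HIST1H2BK rose in all 3 treatments.

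**Figure D3:**
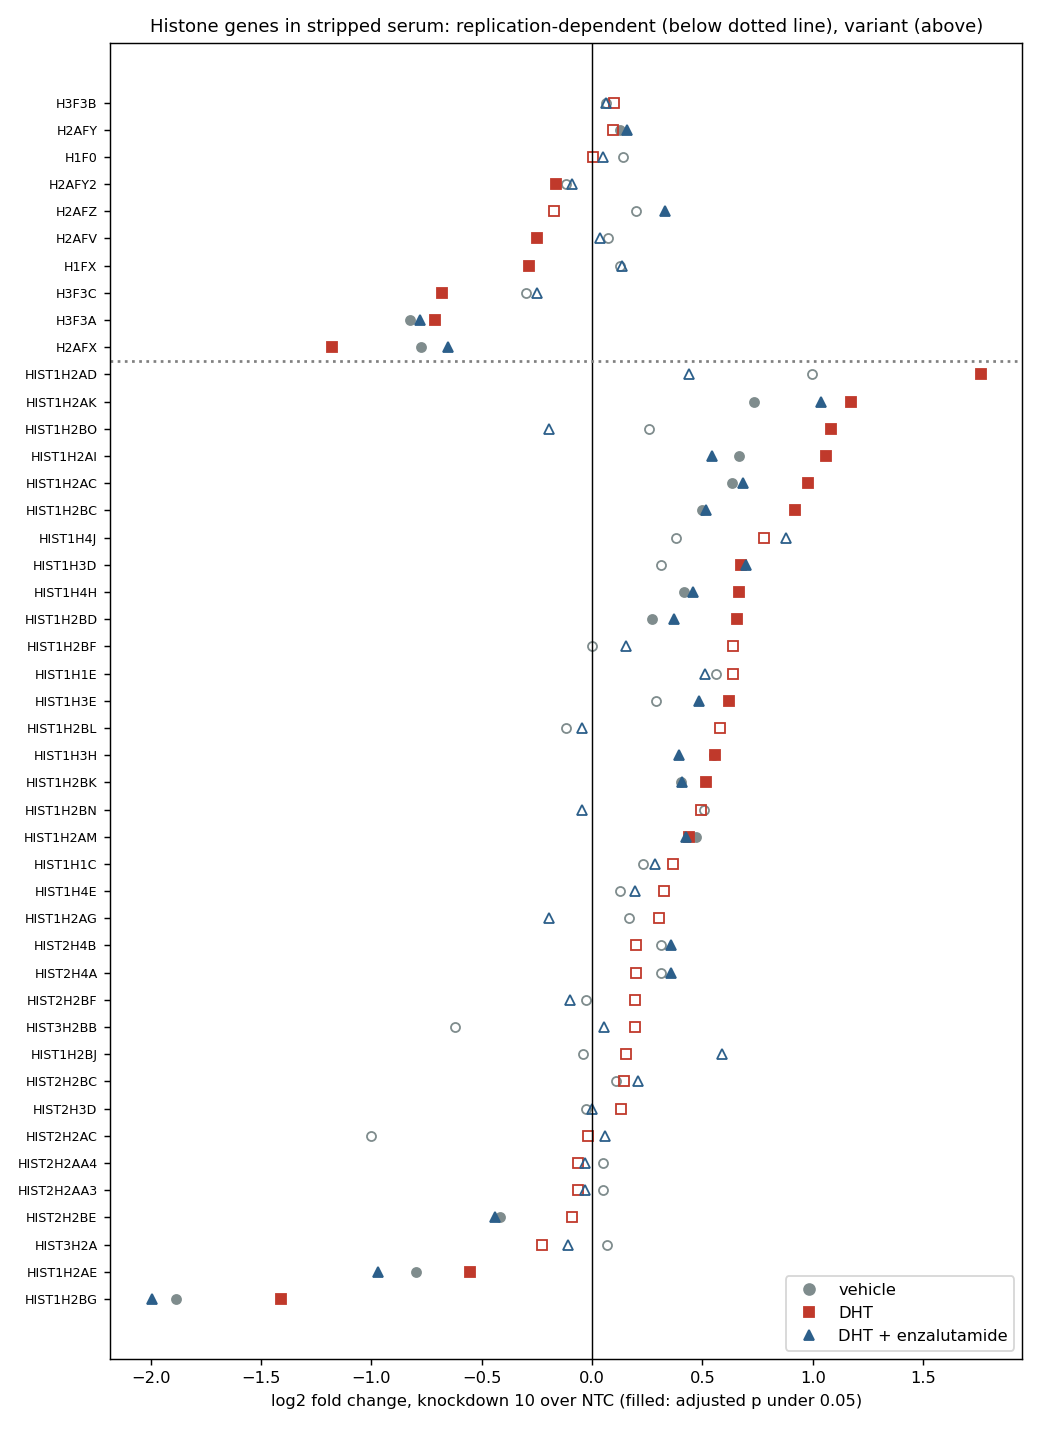
Log2 fold change of knockdown 10 over NTC for each histone gene under vehicle, DHT and DHT with enzalutamide, with variants above the dotted line and filled symbols where the adjusted p was under 0.05; H2AFJ, which lies off the scale, and HIST1H4K are left out. Most replication-dependent genes lie right of 0, with HIST1H2BG furthest left in each treatment; the open circle of HIST2H2AC, left of HIST1H2AE under vehicle, did not pass (adjusted p = 0.0880).

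Among the variants, H2AFX fell in all 3 treatments. It encodes H2A.X, which is phosphorylated at DNA breaks, and its message exists in both stem-loop and polyadenylated form. It had 20.7, 16.3 and 20.4 CPM in knockdown 10 under vehicle, against 29.8, 31.1 and 37.8 CPM in NTC. Under DHT it had 41.0, 35.9 and 35.9 CPM in knockdown 10, against 76.3, 86.1 and 93.8 CPM in NTC, and with enzalutamide 19.8, 20.2 and 19.0 CPM against 25.2, 33.9 and 34.0 CPM. The groups were apart in each, at log2 fold changes of -0.77 (SE 0.12, adjusted p = 6.58e-05), -1.18 (SE 0.11, adjusted p = 2.65e-07) and -0.65 (SE 0.12, adjusted p = 0.000375). In FBS they overlapped fully, at 201, 194 and 147 CPM in shSIRT1 and 212, 199 and 142 CPM in NTC (-0.02, adjusted p = 0.961).

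H3F3A, 1 of the genes for the replacement H3 that HIRA and the DAXX-ATRX pair deposit, had 75.8, 81.8 and 89.1 CPM in knockdown 10 under vehicle, against 128, 159 and 152 CPM in NTC, with log2 fold changes of -0.82, -0.71 and -0.78 in the 3 treatments (adjusted p = 2.18e-06, 7.23e-06 and 4.24e-06). Its partner gene H3F3B, which encodes the same protein, had 606, 611 and 595 CPM in knockdown 10 under vehicle, against 575, 587 and 576 CPM in NTC, and did not pass in any treatment (0.06, 0.10 and 0.06). With the reads of H3F3A, H3F3B and H3F3C summed, the log2 fold changes were -0.08, -0.02 and -0.06 and none passed (adjusted p = 0.231, 0.823 and 0.341). H3F3A had fractional counts in 95.8% of libraries, so part of its value depends on how reads were divided among copies, and this was not tested further.

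Under DHT, H2AFV, the second gene for H2A.Z, fell in knockdown 10 by 0.25 on the log2 scale, H1FX, a linker variant, by 0.29, H2AFY2, a macroH2A gene, by 0.16 and H3F3C, a close relative of the replacement H3 genes, by 0.68 (adjusted p = 0.000189, 0.0260, 0.0170 and 0.00825). The call of H1FX was lost without NTC library 1 or 3 or knockdown library 3, and that of H2AFY2 without NTC library 3 or knockdown library 2. H3F3C had fractional counts in 91.7% of libraries, so its value also depends on how reads were divided among copies. Summed with H3F3A and H3F3B it did not pass under DHT (-0.02, adjusted p = 0.823). H2AFZ passed with enzalutamide only, at 382 ± 10.5 CPM in knockdown 10 and 305 ± 9.52 CPM in NTC (SD, n = 3 each), a log2 fold change of 0.33 (SE 0.09, adjusted p = 0.00740); with library number as a block it also passed under vehicle (0.20, adjusted p = 0.0423), and without library 2 of knockdown 10 it was lower under DHT (-0.32, adjusted p = 0.000865). H2AFY was higher by 0.12 under vehicle and 0.16 with enzalutamide, and H1F0, the linker variant of quiescent cells, had log2 values of 0.14, 0.00 and 0.05 that did not pass. The H2AFY call under vehicle was lost without any of 5 of the 6 libraries, and that with enzalutamide without NTC library 3.

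Genes that work with histones moved in the same libraries. Of 26 chaperones and deposition factors, 2 rose and 16 fell in knockdown 10 under vehicle, 2 rose and 18 fell under DHT, and 2 rose and 15 fell with enzalutamide, with median log2 fold changes of -0.23, -0.36 and -0.23. These are 69.2, 76.9 and 65.4% of the list, where 34.6, 43.0 and 34.6% of all genes passed. ASF1B, a chaperone of new H3 and H4, had 15.3, 11.1 and 13.0 CPM in knockdown 10 under DHT, against 36.4, 33.5 and 35.1 CPM in NTC (log2 fold change -1.42, SE 0.13, adjusted p = 2.02e-07). CENPA, the centromeric H3 variant, had 3.09, 2.01 and 2.14 CPM in knockdown 10 under DHT, against 6.34, 9.82 and 9.60 CPM in NTC (log2 fold change -1.83, SE 0.25, adjusted p = 1.79e-05), and its chaperone HJURP had a log2 fold change of -1.66. CHAF1A and CHAF1B, subunits of the factor that loads H3 and H4 behind the replication fork, fell by 0.95 and 0.78 under DHT. DAXX was 1 of the 2 listed genes that rose, by 0.43, 0.53 and 0.40 in the 3 treatments.

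Of 15 genes for histone mRNA transcription and processing, none rose; 2 fell under vehicle, 6 under DHT and 2 with enzalutamide, by edgeR, with 5, 6 and 4 at an unadjusted p under 0.05 in either direction. The shares called, 13.3, 40.0 and 13.3%, were below those of all genes. SLBP had 61.7, 46.4 and 60.3 CPM in knockdown 10 under DHT, against 88.8, 81.5 and 84.7 CPM in NTC (log2 fold change -0.60, SE 0.09, adjusted p = 2.19e-05). CASP8AP2, a processing factor, fell by 0.61 under DHT, and NPAT, the transcriptional activator of these clusters, did not pass (-0.11, adjusted p = 0.316). Of 20 genes of S phase, 18, 20 and 17 fell and none rose, with medians of -0.71, -1.09 and -0.69. Summed over those 20 genes, S-phase levels were 1029 ± 121 CPM in knockdown 10 under DHT and 2162 ± 82.7 CPM in NTC (SD, n = 3 each). In the same libraries 9, 13 and 13 of 36 replication-dependent histone genes rose, 3, 2 and 3 fell and 24, 21 and 20 did not pass, and the part of S-phase gene levels in this was not tested.

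In FBS the genes that fell in the knockdown were H2AFJ and members of the HIST2 cluster. Of the 39 members tested, 5 fell and none rose by edgeR, a share of 12.8% where 2.71% of all genes passed (0.509% higher and 2.21% lower); 14 members had an unadjusted p under 0.05 in either direction, and DESeq2 also called 5 lower. The 5 were H2AFJ and 4 genes of the HIST2 cluster, HIST2H2AA3 with its copy HIST2H2AA4, HIST2H2BE and HIST2H2BF. HIST2H2AA3 and HIST2H2AA4 are 1 measurement, and with similar copies summed 4 of 35 members passed. HIST2H2BE and HIST2H2BF had fractional counts in 95.8% of libraries and the 2 copies in 100%. Their values therefore depend on how reads were divided among similar genes, and the part of this in the falls was not tested. HIST2H2BE had 33.7, 36.4 and 46.8 CPM in shSIRT1, against 62.8, 68.7 and 64.7 CPM in NTC (log2 fold change -0.74, SE 0.11, adjusted p = 0.0115). HIST2H2BF, an H2B gene of the same cluster, had 4.67, 4.19 and 6.84 CPM in shSIRT1, against 9.96, 9.42 and 9.98 CPM in NTC (log2 fold change -0.90, SE 0.18, adjusted p = 0.0348). HIST2H2AA3 had 11.1, 10.4 and 14.5 CPM in shSIRT1, against 21.8, 20.2 and 17.8 CPM in NTC (log2 fold change -0.72, SE 0.14, adjusted p = 0.0280). In all 3 genes each shSIRT1 library lay below each NTC library, and shSIRT1 library 3 lay nearest to NTC. In knockdown 10 HIST2H2BF and HIST2H2AA3 did not pass under any treatment.

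These FBS calls depended on the library set. Leaving out NTC library 1 or 2 or shSIRT1 library 1 or 2 lowered the count to 2, 1, 1 and 1, and leaving out NTC library 3 gave 8. Using libraries 1 and 2 alone gave 18, 5 higher and 13 lower, where 3426 of all genes passed. That fit takes near-repeat libraries as replicates, so its count is not on a par with the others. H2AFJ passed in each of these fits. HIST2H2BE was lost without NTC library 2 or shSIRT1 library 1 or 2, and HIST2H2AA3 and HIST2H2BF were lost also without NTC library 1. With library number as a block 10 members passed, 2 higher and 8 lower, HIST1H1C (-0.37, adjusted p = 0.0109), H2AFV (0.18, adjusted p = 0.0223) and H2AFY2 (0.22, adjusted p = 0.0275) among those gained. With libraries 1 and 2 of each group summed, since they were so alike, 1 member passed. None of the 20 S-phase genes, 26 chaperones or 15 processing genes passed in FBS, by edgeR, with 0, 2 and 1 at an unadjusted p under 0.05. Medians of the replication-dependent and variant members in FBS were -0.31 and 0.06 in log2 fold change, against 0.01 over all genes.

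In NTC cells, DHT moved some replacement variants up and some members of both classes down. Of 47 members, 5 rose and 10 fell with DHT over vehicle, a share of 31.9% where 29.9% of all genes passed (17.4% higher and 12.5% lower). All 5 that rose were variants, namely H2AFX, H2AFZ, H1FX, H1F0 and H2AFV. Those that fell were 8 of the 36 replication-dependent members and 2 of the 11 variants, which are similar shares. Median log2 fold changes of these classes were -0.29 and 0.15. H2AFX had 76.3, 86.1 and 93.8 CPM in NTC with DHT, against 29.8, 31.1 and 37.8 CPM with vehicle (log2 fold change 1.39, SE 0.11, adjusted p = 5.69e-08). H2AFZ had 569.6, 533 and 524 CPM with DHT, against 357, 342 and 322 CPM with vehicle (log2 fold change 0.69, SE 0.09, adjusted p = 1.04e-05). H1FX had 67.5, 68.6 and 71.0 CPM with DHT, against 48.7, 45.7 and 52.3 CPM with vehicle (log2 fold change 0.51, SE 0.10, adjusted p = 0.000739). In these 3 genes every DHT library lay above every vehicle library.

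HIST1H4H showed the fall, with 7.25, 6.44 and 4.45 CPM in NTC with DHT, against 9.27, 9.43 and 9.25 CPM with vehicle (log2 fold change -0.60, SE 0.16, adjusted p = 0.00745). HIST1H3E, an H3 gene that lies beside HIST1H2AE, had 1.37, 1.60 and 1.42 CPM with DHT, against 2.53, 2.25 and 2.26 CPM with vehicle (log2 fold change -0.67, SE 0.18, adjusted p = 0.0101). HIST1H2BG, HIST1H2AK, HIST2H2BF, HIST1H3D, HIST1H2BD and HIST1H2AC fell by 0.54, 0.52, 0.48, 0.39, 0.34 and 0.28 on the log2 scale. H3F3A and H3F3B fell by 0.43 and 0.18, and the sum of the 3 H3F3 genes by 0.23 (adjusted p = 0.0015). The call of HIST1H2BG was lost without vehicle library 1 or DHT library 1 or 3, that of HIST1H2AK without vehicle library 2 or 3 or DHT library 1 or 3, that of HIST1H3D without vehicle library 2 or 3 or DHT library 1 or 2, and that of H1F0 without vehicle library 2. In the same libraries all 20 S-phase genes rose, with a median of 1.44, as did 18 of 26 chaperones and 10 of 15 processing genes. KLK3, the androgen-induced gene for prostate-specific antigen, rose by 3.23 on the log2 scale.

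**Figure D4:**
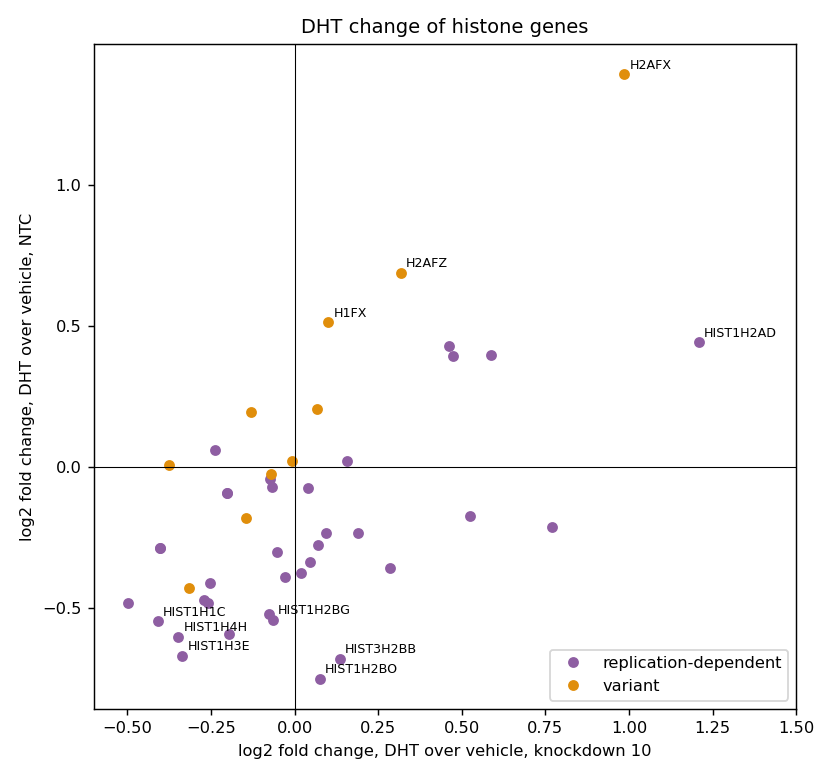
Log2 fold change with DHT over vehicle in knockdown 10 (horizontal) and in NTC (vertical) for each histone gene, from separate libraries; H2AFJ and HIST1H4K are left out. H2AFX and H2AFZ are high on both axes, and most replication-dependent genes lie below 0 on the vertical axis.

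In knockdown 10, 3 members rose and 6 fell with DHT over vehicle, a share of 19.1% where 22.2% of all genes passed (13.3% higher and 8.92% lower). H2AFX had 41.0, 35.9 and 35.9 CPM in knockdown 10 with DHT, against 20.7, 16.3 and 20.4 CPM with vehicle (log2 fold change 0.99, SE 0.12, adjusted p = 1.00e-05). H2AFZ had 423, 575 and 446 CPM with DHT, against 373, 411 and 387 CPM with vehicle (log2 fold change 0.32, SE 0.09, adjusted p = 0.0144). H2AFX and H2AFZ rose with DHT in both lines, and H3F3A and H3F3B fell in both, -0.31 and -0.15 in knockdown 10. The others were HIST2H2BC, annotated as non-coding, which rose by 0.46, and HIST2H2AA3 with its copy (-0.40), H2AFV (-0.13) and H2AFJ, which fell. H2AFJ had 0 reads with DHT, against 18 reads over the 3 vehicle libraries (3, 2 and 13).

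Most of these calls were lost without 1 library or another. The count was 3 without DHT library 1 or 3, 4 without vehicle library 1 and 5 without vehicle library 3, and 3 when only the groups compared were fitted. The H2AFZ call was lost without vehicle library 1 (0.28) or 3 (0.29) or DHT library 2 (0.16), which stood highest, and that of H2AFV without vehicle library 1 or 3 or DHT library 1 or 3. That of H2AFJ was lost without vehicle library 3, which held 13 of the 18 vehicle reads, or DHT library 1 or 3, that of HIST2H2AA3 without vehicle library 1 or DHT library 1 or 3, and that of H3F3A without vehicle library 3 (-0.28). That of H3F3B was lost without vehicle library 1 or 2 or DHT library 1 or 3, and that of HIST2H2BC without any vehicle library or DHT library 1 or 3. H2AFX kept its call through every omission. In knockdown 10, 19 of 20 S-phase genes rose with DHT, with a median of 1.03.

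Enzalutamide added to DHT lowered H2AFX and H2AFZ in NTC; the comparison shares its DHT libraries with that of DHT over vehicle, so both rest on the same values. Of 47 members, 5 rose and 6 fell, a share of 23.4% where 29.2% of all genes passed (12.6% higher and 16.6% lower). H2AFX had 25.2, 33.9 and 34.0 CPM in NTC with DHT and enzalutamide, against 76.3, 86.1 and 93.8 CPM with DHT (log2 fold change -1.48, SE 0.11, adjusted p = 1.95e-08). H2AFZ had 301, 316 and 298 CPM with enzalutamide, against 569.6, 533 and 524 CPM with DHT (log2 fold change -0.85, SE 0.09, adjusted p = 7.80e-07). H1FX, H2AFV, HIST1H2BJ and HIST2H2BC also fell, at -0.47, -0.22, -0.93 and -0.46. HIST1H2BG, HIST1H3E, HIST2H2BF, H3F3A and HIST1H2AC rose, at 0.64, 0.55, 0.30, 0.26 and 0.21. Of these risers, HIST1H2BG kept its call through every omission of a library and the other 4 each lost theirs in 4 omissions. Of the genes that fell, HIST2H2BC lost its call in 5 of the 6 omissions, all but that of DHT library 2, and the other 5 kept theirs in each. With library number as a block 17 members passed, 10 higher and 7 lower, with HIST1H4H (0.39, adjusted p = 0.0327), H3F3B (0.12, adjusted p = 0.0275) and H2AFJ (-0.29, adjusted p = 0.0288) among those gained. The count was 6 without DHT library 3 or enzalutamide library 2. All 20 S-phase genes fell, with a median of -1.54.

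In knockdown 10, 1 member rose and 3 fell with enzalutamide, a share of 8.51% where 20.3% of all genes passed (8.08% higher and 12.2% lower). H2AFX had 19.8, 20.2 and 19.0 CPM in knockdown 10 with DHT and enzalutamide, against 41.0, 35.9 and 35.9 CPM with DHT (log2 fold change -0.95, SE 0.12, adjusted p = 1.51e-05). H2AFZ had 374, 377 and 394 CPM with enzalutamide, against 423, 575 and 446 CPM with DHT (log2 fold change -0.35, SE 0.09, adjusted p = 0.00857). HIST1H2BF, an H2B gene, fell by 0.84 and HIST3H2A, the H2A gene of the HIST3 cluster, rose by 0.43, and each lost its call in 4 omissions of a library. With library number as a block 12 members passed, 5 higher and 7 lower. The count was 10 without DHT library 2, and 2 without DHT library 1 or enzalutamide library 2. All 20 S-phase genes fell, with a median of -1.07.

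**Figure D5:**
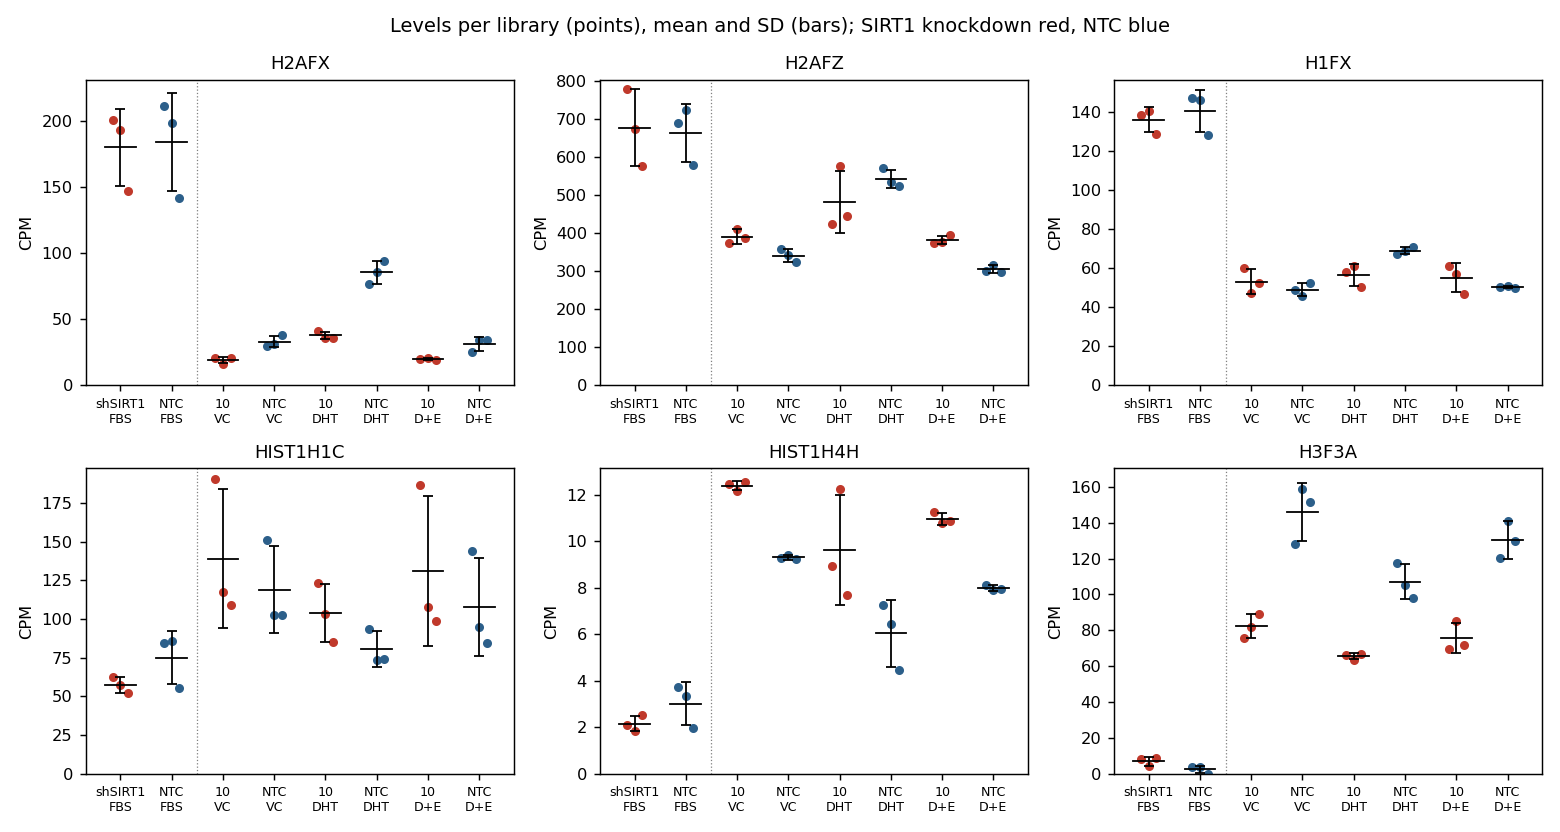
CPM of 6 histone genes in each library, with mean and SD of 3 libraries; knockdown groups stand left of their NTC group, and a dotted line separates FBS from stripped serum. H2AFX and H2AFZ are highest under DHT within stripped serum, HIST1H4H has its lowest group mean there, and HIST1H1C is highest in library 1 of each stripped-serum group.

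The test of whether the DHT response differed between the lines returned 1 of 47 members, 2.13%, where 0.199% of all genes passed (0.0412% higher and 0.158% lower). H2AFV had 121, 125 and 122 CPM in knockdown 10 with DHT, against 134, 132 and 141 CPM with vehicle, and 138, 151 and 149.5 CPM in NTC with DHT, against 124, 133 and 131 CPM with vehicle. It was lower with DHT in knockdown 10 and higher with DHT in NTC, a difference of -0.32 (SE 0.06, adjusted p = 0.0394) on the log2 scale. The call was lost without any of the 3 NTC vehicle libraries, without NTC DHT library 2 or 3, without knockdown vehicle library 1 or 3 and without knockdown DHT library 3; over all alternatives its adjusted p ran up to 0.183. For H2AFX the difference in DHT response was -0.41 (SE 0.16, adjusted p = 0.344), for H2AFZ -0.37 (SE 0.12, adjusted p = 0.243), for H1FX -0.41 (SE 0.14, adjusted p = 0.256) and for HIST1H2AC 0.34 (SE 0.09, adjusted p = 0.136), so a different response was not detectable for these. For the enzalutamide response no member passed by edgeR, where 0.350% of all genes did (0.268% higher and 0.0824% lower); 9 members had an unadjusted p under 0.05 and DESeq2 called 2. H2AFV came nearest, at 0.29 (SE 0.06, adjusted p = 0.0565).

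HIST1H1C, the most abundant linker gene in stripped serum, passed in no comparison without a block. It had 190.5, 118 and 109 CPM in knockdown 10 under vehicle, against 151, 102 and 103 CPM in NTC, and 123, 104 and 85.2 CPM under DHT, against 93.9, 73.5 and 74.0 CPM in NTC. With enzalutamide it had 187, 108 and 98.9 CPM in knockdown 10, against 144, 94.8 and 84.8 CPM in NTC. Library 1 was the highest of every stripped-serum group, and within each library number knockdown 10 lay above NTC in all 3 treatments. With library number as a block its log2 fold change for knockdown was 0.21 under vehicle and 0.27 under DHT with enzalutamide (adjusted p = 0.0429 and 0.0118). With DHT over vehicle it was -0.53 in NTC (adjusted p = 5.01e-05), and with enzalutamide added to DHT it was 0.28 in knockdown 10 and 0.38 in NTC (adjusted p = 0.0147 and 0.0014). In these comparisons same-numbered libraries deviated together over all genes.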

How the data were processed

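The authors made poly(A)-selected, stranded mRNA libraries from about 500 ng of TRIzol RNA, per the labels' protocols. CASAVA 1.8.2, RSEM 1.2.31 and build hg19 are named in the submitters' processing notes; the aligner, annotation and strand setting are not given in the sources used here. Each deposited file held RSEM expected counts, TPM and FPKM per gene symbol, with transcript length and effective length as other columns, per the file headers. The deposited FPKM values were not used. Expected counts deposited by the authors were rounded to whole numbers and fitted with edgeR 4.0.16 (R 4.3.3, quasi-likelihood F test, two-sided, TMM scaling, filterByExpr by group) over all genes, in 1 fit for 6 FBS and 1 for 18 stripped-serum libraries, with 14329 and 14558 genes tested, of which 39 and 47 were members. Genes passed the test where the p-value after Benjamini-Hochberg adjustment was under 0.05. The SE of a log2 fold change is its size divided by the square root of the F statistic. CPM is the expected count scaled by the library total and compares a gene between libraries; deposited TPM was used to compare genes. The groups had 3 libraries each, which limits precision; p-values cover these 10 comparisons separately. The named genes were SIRT1, the main variants and polyadenylated genes, up to 8 called members at each end of a comparison, and up to 4 called genes of each related list with a fixed few.

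The members and the lists of related genes were chosen with earlier results of these data known. Alternatives were a replicate block, DESeq2 1.42.0, relative log expression (RLE) size factors, no low-count filter, limma 3.58.1 on log2 of deposited TPM plus 0.5, library totals only, similar copies summed, only the groups compared, libraries 1 and 2 summed or alone in FBS, libraries 2 and 3 alone in stripped serum, and each library left out. Copies summed, library totals and the sets without library 3 or 1 were chosen after the values were seen. Same-numbered libraries of compared groups deviated together, with correlations above 0.1 for every pair, in 6 of the 10 comparisons (0.14 to 0.35 in FBS, 0.12 to 0.36 under vehicle) but not in the DHT knockdown comparison (0.08 to 0.30), the DHT response of knockdown 10 (0.05 to 0.34) or the tests between responses; the labels give no shared culture. The fits were tested on simulated counts. Promoters came from RefSeq (GRCh38.p14), matched by accession for 47 of 47 members, 44 of them with a promoter, and stem-loops from GENCODE release 29 transcripts. Coordinates of the authors' hg19 were not used.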

Additional observations from a re-analysis of the deposited data

Results flagged for a closer look

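H2AFV, the second gene for H2A.Z, was the 1 member whose response to DHT differed between the lines by the test of the difference itself. Knockdown 10 had 123 ± 2.28 CPM with DHT and 136 ± 4.59 CPM with vehicle, and NTC had 146 ± 7.53 CPM with DHT and 129 ± 4.93 CPM with vehicle (SD, n = 3 each). The difference between the responses was -0.32 (SE 0.06, adjusted p = 0.0394) on the log2 scale by edgeR, and all 3 knockdown libraries with DHT lay below all 3 with vehicle while all 3 NTC libraries with DHT lay above all 3 with vehicle. Its adjusted p was 8.66e-05 by DESeq2 and 0.183 when only the 4 groups compared were fitted.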

How the results depend on the processing

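Counts of members called stayed within 1.5 times of the reported value under every alternative run for the knockdown under vehicle (16, leave-one-out 11 to 17), the knockdown under DHT (22, leave-one-out 17 to 22) and DHT in NTC (15, leave-one-out 12 to 15), and no reported log2 fold change of a called gene turned round. For the knockdown with enzalutamide (21) the leave-one-out counts were 13 to 18. For the FBS knockdown (5) they were 1 to 8, with 10 under the replicate block, 1 with libraries 1 and 2 summed and 18 with libraries 1 and 2 alone. For DHT in knockdown 10 (9) they were 3 to 12, with 3 for the groups compared alone and 5 for libraries 2 and 3 alone. For enzalutamide in NTC (11) they were 6 to 10, with 17 under the block. For enzalutamide in knockdown 10 (4) they were 2 to 10, with 12 under the block, 7 by limma on TPM and 1 for the groups compared alone. For the difference in DHT response (1) they were 0 to 2, with 5 under the block, 2 by DESeq2 and 0 with no low-count filter, by limma, with library totals, for the groups compared alone and for libraries 2 and 3 alone. For the difference in enzalutamide response (0) they were 0 to 2, with 5 under the block, 2 by DESeq2 and 1 by limma. The cause of these changes was not tested. In the comparisons that library number did not pair, the block added HIST1H1C to the knockdown under DHT (0.37, adjusted p = 0.00129) and to DHT in knockdown 10 (-0.38, adjusted p = 0.00178). Over all genes, the FBS comparison had 389 calls, 1676 with the block and 3426 with libraries 1 and 2 alone, which takes near-repeats as replicates. Counts under 20 reads in a library, as in HIST1H2AD, HIST1H2BO, HIST1H4E and, in most knockdown 10 libraries, HIST1H2BG, limit what these libraries can show for the weakest members. Levels of similar copies depend on how RSEM divided reads, and poly(A) selection limits levels of the replication-dependent genes.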
